A study of Caenorhabditis elegans with 36 samples.

Results

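The core histone genes of C. elegans were followed through a multigenerational heat experiment by chromatin immunoprecipitation and sequencing (ChIP-seq). They were taken as every gene whose public name is his- followed by a number, other than his-24, which encodes a linker histone. This gave 69 genes of the 20167 in the deposited table, after each gene was reduced to its first isoform. In 5 pairs of members (his-10 and his-14, his-28 and his-50, his-27 and his-49, his-21 and his-51, his-19 and his-53) both genes held identical values in all libraries, so counts below are over 64 sets with distinct values. In 4 of these pairs the genes lie in neighbouring clusters of chromosome V.

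Core histones H2A, H2B, H3 and H4 assemble into the octamer around which DNA is wrapped in the nucleosome. Most of their genes in animals are short, lie in clusters, are transcribed with DNA replication and give mRNAs that end in a stem-loop and not in a poly(A) tail, while genes of replacement variants such as H3.3 are transcribed outside S phase as well. In an adult hermaphrodite, DNA replication takes place mainly in the proliferating germline and in the embryos held in the uterus.

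Chromatin came from adults of wild-type N2 (WT) and from hrde-1(tm1200) adults, which lack a germline nuclear Argonaute that is guided by small RNAs to nascent transcripts and is needed for H3K9 methylation at its targets. Each strain was kept as 1 lineage, and each culture was synchronised as larvae and grown on plates to adulthood. Libraries were made from generation 3 at 15 °C (15C-G3), from 23 °C at generations 2, 4 and 6 (named 23C-G2 and so on), and from the first generations after return to 15 °C (p15C-G1 and p15C-G2). At each of these 6 points each genotype had 1 library for RNA polymerase II phosphorylated on serine 2 of its C-terminal domain (Pol II), a mark of elongation, 1 for H3K9me3, a heterochromatin mark, and 1 for input, 36 libraries in all. Animals were collected at a later age at 15 °C than at 23 °C, so temperature and time in culture cannot be told apart. The samples are whole young adults, and how many embryos they held is not given. A change in the number of nuclei that use a gene cannot be told apart from a change in Pol II per nucleus. All libraries belong to biological repeat 2 of the study, and within a phase the libraries come from successive generations, so the tests read the spread between those libraries and not between independent cultures.

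Estimated depth was 3.07 to 5.66 megareads for Pol II, 2.07 to 7.97 for H3K9me3 and 0.220 to 1.31 for input. The median member held an estimated 118 to 710 reads per Pol II library, 26 to 70.8 per H3K9me3 library and 4.5 to 19.6 per input library, so input is a coarse background. PCR copies were not separated, so depth speaks for counting error alone. Pol II over hrde-1 itself came to 129 RPKM (reads per kilobase of gene and per megaread of library) in hrde-1 animals at 15C-G3, 76.5 to 86.5 at 23C and 83.8 and 105 at p15C, against 189, 107 to 135 and 134 and 151 RPKM in WT animals, and it was lower in hrde-1 in every generation.

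The 69 members comprised 17 H2A, 17 H2B, 19 H3 and 16 H4 genes. The length of the RefSeq gene set the class of 59 of them, and the name alone that of the other 10. RefSeq (WBcel235) gave 384 bases for 15 H2A genes, 411 for 14 H3 genes and 312 for 15 H4 genes. H2B came in 2 lengths, 372 bases in 10 genes and 369 bases in 5 genes, and the 5 lay in only 2 of the clusters, on chromosome II and at his-29 to his-34.

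Joining members within 10 kb of each other gave 17 loci, 13 of them with more than 1 member. Coordinates are those of the WS190 release. The largest locus, II:13817668-13828606, held 13 genes (his-9 to his-16, his-25, his-26 and his-42 to his-44) and is called the chromosome II cluster below. On chromosome IV lay 4 quartets with 1 gene of each class, his-59 to his-62 (IV:7485732-7488672), his-45 to his-48 (IV:11323856-11327061), his-55 to his-58 (IV:11337824-11340766) and his-63 to his-66 (IV:11400386-11407467), and the 6 genes his-29 to his-34 (IV:8331026-8336322). On chromosome V lay his-5 to his-8 with his-39 (V:8532693-8536693), his-49 to his-54 (V:8847369-8854029), his-17 to his-22 with his-27 and his-28 (V:8889464-8898621) and the quartet his-1 to his-4 (V:16040064-16042804). The remaining 11 members were the pairs his-67 with his-68 (I:9988335-9989604) and his-69 with his-70 on chromosome III, his-35 with his-37 and his-41 on chromosome V, and single genes.

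The clusters were built mostly of divergent pairs. Of 52 neighbouring pairs within loci, 30 were head to head, with a gap of 196 to 327 bp (median 243), 19 were tail to tail and 3 were on the same strand. An H2A gene faced an H2B gene in 16 of the head-to-head pairs, an H3 gene faced an H4 gene in 13, and an H2A gene faced an H4 gene in 1. This layout limits what the values can resolve. RPKM in the deposited table stepped in whole reads when about 1 kb was added to the gene length, members were short (median 385 bp) and ChIP reads carry no strand, so neighbours share reads. For 61 of 69 members (88.4%), against 5106 of all 20167 genes (25.3%), the estimated reads were also fractional, as they are where a read that aligns to several copies is divided among them. Members of a cluster, and near-identical members of different clusters, are therefore not independent measurements, and the locus is the smallest unit that can be read with some safety. Input was also higher over members, at 9.47 to 19.7 RPKM for the median set and 7.12 to 9.31 for the median gene. The reason for this was not tested. Levels are therefore compared among members, and with other genes only as a ratio to input.

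Pol II was high over most core histone genes. The ratio of Pol II to input had a median of 3.90 over the 64 sets and 0.566 over all genes. Averaged over the 12 libraries, the median set had 53.4 RPKM, and single sets lay between 2.88 and 231 RPKM.

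Level differed more between loci than between histone classes. The medians of H2A, H2B, H3 and H4 genes were 49.9, 50.8, 53.6 and 54.9 RPKM. The 4 chromosome IV quartets stood highest, with locus medians of 214 RPKM for his-55 to his-58, 209 for his-45 to his-48, 186 for his-63 to his-66 and 147 for his-59 to his-62. The chromosome II cluster followed at 71.8 RPKM, with members between 36.9 and 128. Here the H2A and H2B genes stood above the H3 and H4 genes, whose ranges overlapped. The class means were 125.5 RPKM for H2A, 114 for H2B, 61.5 for H3 and 58.6 for H4 genes. The H3 mean was lowered by his-42, which at 36.9 RPKM was the lowest member of the cluster. The next loci of more than 1 gene lay close together, at 51.5 RPKM for his-17 to his-22, 49.5 for his-49 to his-54, 49 for his-67 and his-68, 45.2 for his-1 to his-4 and 43.2 for his-29 to his-34 (H2B 53.6, H3 52.9, H4 35.4 and H2A 34.6), and these neighbours in the order did not differ beyond their spread across libraries. The highest gene of each class was in a chromosome IV quartet: the H2A gene his-57, the H2B gene his-66, the H3 gene his-55 and the H4 gene his-46.

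In the quartets the level varied little. Pol II over his-66, the member with the highest mean, came to 268 RPKM at 15C-G3, 229, 266 and 234 through the 3 generations at 23C, and 170 and 259 at p15C in hrde-1 animals. In WT animals his-66 had 254, 184, 255, 203, 232 and 222 RPKM in the same order of generations. The ranges overlapped, 170 to 268 RPKM in hrde-1 and 184 to 255 in WT, with the lowest value in the hrde-1 library at p15C-G1. The locus medians of the 4 quartets differed by 1.65- to 1.78-fold between the highest and lowest of the 12 libraries, and the median of all genes by 1.66-fold.

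**Figure D1:**
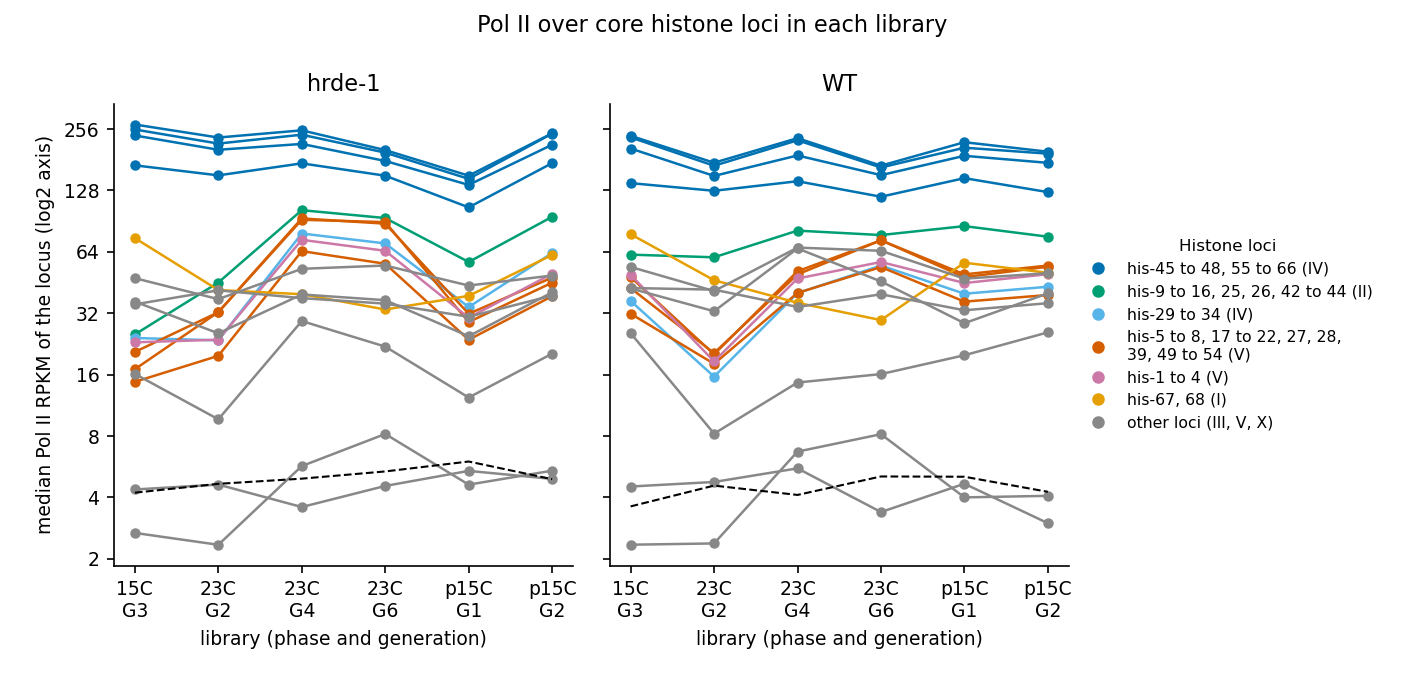
Median Pol II RPKM (log axis) of each core histone locus by library, for hrde-1 (left) and WT (right), with generations in culture order and the median of all genes as a dashed line. The chromosome IV quartets lie between 106 and 270 RPKM, while the chromosome II, his-29 to his-34 and chromosome V clusters span 3.94- to 5.41-fold between libraries.

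The chromosome II and V clusters and his-29 to his-34 varied far more. Their locus medians differed by 3.94-fold (his-1 to his-4) to 5.41-fold (his-49 to his-54) between the highest and lowest library. The highest library was hrde-1 at 23C-G4 for each of them. The SD within groups had a median of 0.43 on the log2 scale over the members and 0.27 over all genes. It was 0.65 for his-49 to his-54, 0.68 for his-1 to his-4 and 0.27 to 0.29 for the quartets.

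The locus his-49 to his-54 shows this at the level of a gene. Pol II over his-54, an H2B gene, came to 15.2 RPKM at 15C-G3, 33.3, 93.7 and 91.6 through the 3 generations at 23C, and 29.9 and 45.3 at p15C in hrde-1 animals. In WT animals his-54 had 44.2, 20.8, 51.8, 77.2, 49.2 and 57.8 RPKM in the same order. The hrde-1 libraries held both the lowest value, at 15C-G3, and the highest, at 23C-G4, and at 23C-G2 both genotypes lay below 23C-G4 and 23C-G6.

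Members from other clusters followed similar courses, with his-12 chosen for the chromosome II cluster after its values were seen. The H2B gene his-20, in the neighbouring cluster on chromosome V, gave nearly the same series, 14.4, 31.9, 91.0, 89.5, 28.3 and 43.2 RPKM in hrde-1 and 43.1, 20.2, 50.6, 74.7, 47.5 and 56.4 in WT. The chromosome II H2A gene his-12 had 36.7, 81.9, 206, 196, 98.9 and 153 RPKM in hrde-1 and 98.1, 99.8, 146, 162, 129 and 129 in WT. At his-12 the hrde-1 library was lowest at 15C-G3, as at his-54, but the 23C-G2 library of WT was no lower than that of 15C-G3. The H3 gene his-32, from the smaller chromosome IV cluster, had 19.3, 23.6, 95.3, 91.8, 47.7 and 84.1 RPKM in hrde-1 and 50.7, 13.9, 48.7, 67.3, 44.1 and 48.8 in WT. At all of these genes the hrde-1 library was the lower of the pair at 15C-G3 and the higher at 23C-G4 and 23C-G6.

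The first comparison asked how Pol II over these genes at 23C differed from 15C in each genotype. Tests used limma on log2(RPKM + 1) with adjustment over the whole table. A call needed a change of at least 2-fold and an adjusted p no higher than 0.1. In hrde-1 animals the median change of the 64 sets, 23C against 15C, was 1.04 on the log2 scale (range -1.07 to 2.07). Of these, 42 sets had positive values. Over all genes the median was 0.074, with 58.9% positive. By limma 0 sets were called, 27 had an unadjusted p under 0.05 and the lowest adjusted p was 0.151. Of the 20116 genes tested, 0.229% were called and 1413 had an unadjusted p under 0.05. The locus medians were 1.71 at the chromosome II cluster, 1.64 and 1.62 at his-17 to his-22 and his-49 to his-54, 1.44 at his-5 to his-8, 1.09 at his-1 to his-4 and 0.94 at his-29 to his-34. The chromosome IV quartets had -0.13 to -0.25 and the pair his-67 and his-68 had -0.96.

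In WT animals the median change was -0.21 (0.16 without the WT library of 23C-G2), with 20 of 64 sets positive. Over all genes the median was 0.138, with 62.6% positive. By limma 0 sets were called and 2 had an unadjusted p under 0.05. Of the 20116 genes tested, 0.0149% were called and 1604 had such a p. The chromosome II cluster had a median of 0.44, his-49 to his-54 had -0.06 and his-1 to his-4 had -0.39.

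The 23C-G2 libraries stood apart from 23C-G4 and 23C-G6 at these loci, in both genotypes. A fit without them was chosen with those values known, and it raises the 23C mean and narrows the spread at these genes by construction, so its calls are given as a description of the fit. Without both 23C-G2 libraries, limma called 37 sets higher and 1 lower in hrde-1 at 23C than at 15C, with 3.67% of all genes called. In WT the same fit called 1 set higher (his-71) and 2 lower (his-67 and his-68), with 1.02% of all genes called. With that fit his-20 was 2.56 log2 units higher at 23C in hrde-1 (limma, adjusted p = 2.96e-10), against 2.07 with all libraries (adjusted p = 0.391). For the difference between genotypes that fit called 26 sets, all with a larger change in hrde-1, with 0.92% of all genes called. Leaving out 1 library mattered as well: 29 sets were called in hrde-1 without the hrde-1 23C-G2 library (1.68% of all genes) and 23 without the WT one (1.14%), since all groups share 1 estimate of the spread. With quantile normalization and all libraries 3 sets were called, with 0.114% of all genes.

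The difference between genotypes in the heat change was then tested as an interaction. Its median was 1.18 on the log2 scale over the 64 sets, with 56 positive. The median of all genes was -0.019, with 47.8% positive. Without pairing of libraries, limma called 0 sets and 16 had an unadjusted p under 0.05. Of the 20116 genes tested, 0.00497% were called and 544 had such a p. Pol II libraries of hrde-1 and WT from the same generation deviated together, so the generation was also fitted as a block. In that fit limma called 30 sets, all with a larger change in hrde-1, and 1.43% of all genes. Both genotypes had 1 library at 15C, so the interaction rests on a single pair of libraries on that side.

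The 30 sets came from 7 loci. All sets were called at his-5 to his-8 with his-39 (5 of 5), his-49 to his-54 (6 of 6), his-17 to his-22 (4 of 4, its other 4 genes having the values of sets already counted) and his-1 to his-4 (4 of 4). At the chromosome II cluster 7 of 12 sets were called (his-9, his-12, his-13, his-15, his-16, his-43 and his-44), at his-29 to his-34 3 of 6 (his-29, his-32 and his-34), and the H4 gene his-38 on chromosome X was called as well. In the chromosome IV quartets 0 of 16 were called, with locus medians of 0.08 to 0.12. By class the largest values were at H2B genes: his-20 had an interaction of 2.09 ± 0.23 (SE, adjusted p = 0.00182 by limma with the block, 1 without it) and his-54 had 2.06 ± 0.24 (adjusted p = 0.00214). The H3 gene his-32 had 2.05 (adjusted p = 0.00435 by limma with the block), the H2A gene his-12 1.55 (0.0479), the H4 gene his-1 1.36 (0.00944) and his-38 1.16 (0.0642). His-1 was chosen for its locus after its values were seen.

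**Figure D2:**
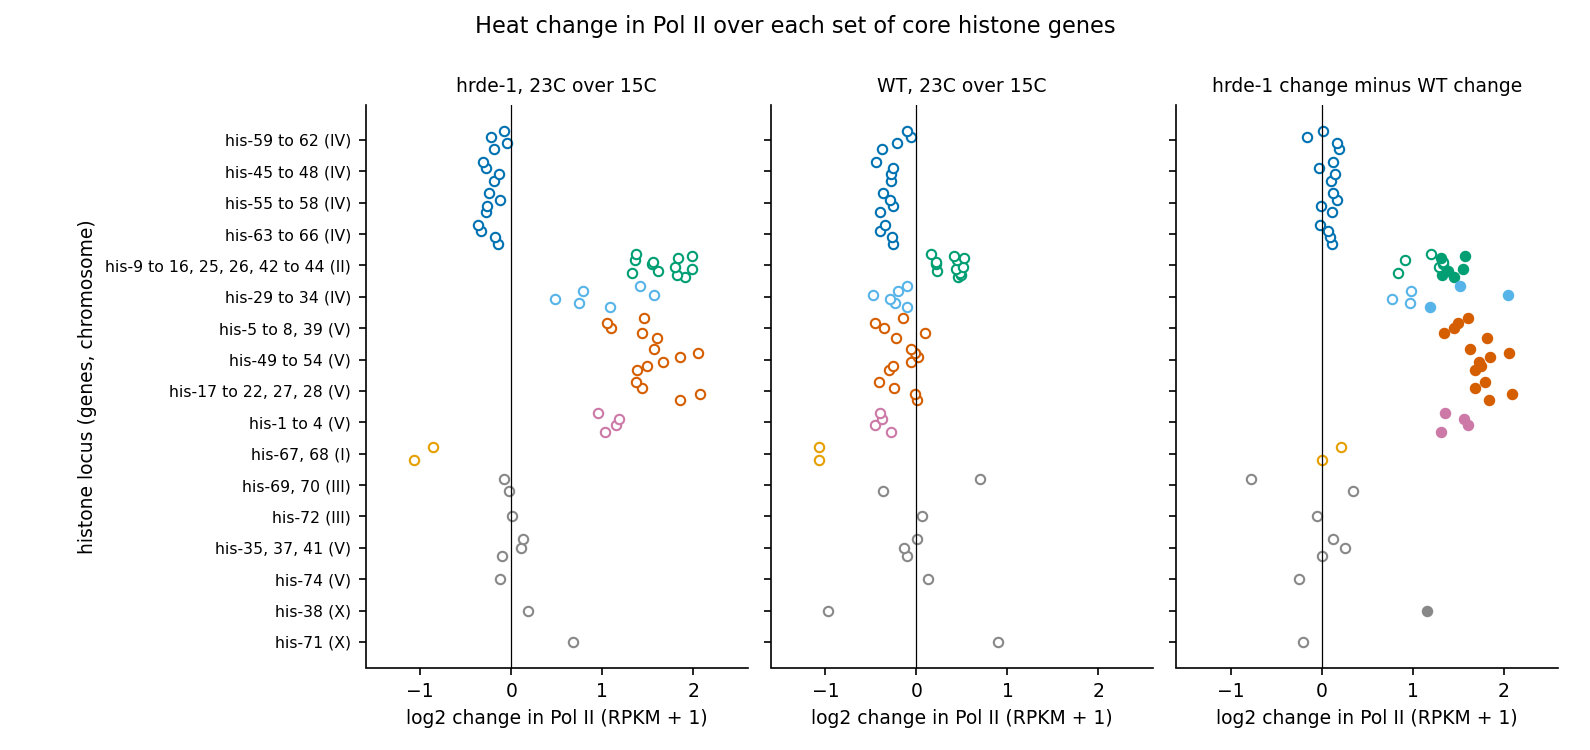
Log2 change of Pol II (RPKM + 1), 23C over 15C, for each of the 64 sets (points) by locus, in hrde-1 (left), in WT (centre) and as the difference between them (right), where filled points were called by limma with generation as a block. The block fit gave no test of 23C against 15C within a genotype, so only the right panel can hold filled points. The 30 filled points there lie at the chromosome II and V clusters, his-29 to his-34 and his-38, and 0 lie in the chromosome IV quartets.

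Gene lists for cell types and for histone metabolism were read in the same libraries. Summed Pol II over 16 early zygotic genes, which are expressed in young embryos, came to 75.7 RPKM at 15C-G3, 83.2, 121 and 125 at 23C and 109 and 92.5 at p15C in hrde-1, and 89.0, 79.6, 101, 119, 91.7 and 88.2 RPKM in WT. Over 10 intestinal genes, vitellogenins among them, it was 1282, 1074, 567, 453, 589 and 750 RPKM in hrde-1 and 959, 1216, 727, 644, 1060 and 1154 RPKM in WT. The 23C-G4 and 23C-G6 libraries thus had the highest early zygotic sums and the lowest intestinal sums of hrde-1. In hrde-1 they were also the libraries in which the chromosome V clusters and his-29 to his-34 were highest. The early zygotic genes did not move alike. From 15C-G3 to 23C-G6 in hrde-1, pha-4 went from 5.38 to 17.3 RPKM and elt-1 from 4.49 to 14.7. Over the same span end-1 went from 15.3 to 14.9 and ceh-51 from 12.0 to 9.94. Summed input over the 16 early zygotic genes was 117.5 to 160.4 RPKM, above their summed Pol II everywhere but in WT at 23C-G6. In hrde-1, 7 of them at 15C-G3 and 5 at 23C-G6 had Pol II below 3 RPKM. This list thus lay near background and is no measure of embryo content. Summed input over the intestinal genes was also lower in hrde-1 at 23C (107, 101 and 107 RPKM) than at 15C-G3 (183). The part of embryos and intestine in the histone values was not tested.

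Other lists gave smaller values. In hrde-1 at 23C against 15C the median log2 change was 0.28 for the early zygotic genes (12 of 16 positive), -0.86 for intestinal genes (0 of 10 positive), -0.30 for 17 germline and oocyte genes, -0.05 for 31 DNA replication genes and -0.15 for 19 genes of histone mRNA processing and histone chaperones, and for these lists and the sperm genes limma made 0 calls in 735 tests of a gene in 1 of the 7 comparisons, 49 of them with an unadjusted p under 0.05. Of the 31 replication genes, 10 were positive in hrde-1 and 1 in WT, where the median was -0.30. The difference between genotypes in the heat change had a median of 0.23 for replication genes (31 of 31 positive) and -0.67 for intestinal genes (0 of 10 positive). Among replication genes, cye-1, the cyclin E gene, had -0.22 in hrde-1 and -0.55 in WT for 23C against 15C. The gene mcm-4, of the replicative helicase, had -0.25 in hrde-1 and -0.49 in WT. Summed Pol II over 12 sperm genes was 45.1 to 82.0 RPKM in hrde-1 and 30.4 to 85.7 RPKM in WT. Of 13 other histone genes 1 was called, the linker histone-like gene hil-8, which was higher in hrde-1 than in WT by 1.25 at 23C and 1.30 at p15C on the log2 scale (limma adjusted p = 0.000933 and 0.00563), and had -1.77 for 23C against 15C in hrde-1 (0.0106). Another such gene, hil-3, had 4.39, 12.7, 41, 37.4, 12.0 and 28.5 RPKM in hrde-1 and 18.1, 8.63, 24.3, 24.3, 15.7 and 22.8 RPKM in WT. His-24, the linker histone gene left out of the members, had 12.4, 24.4, 74, 65.9, 25.5 and 48.5 RPKM in hrde-1 and 40.3, 18.4, 42.2, 49.4, 29.9 and 39.7 RPKM in WT.

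The next question was whether Pol II over core histone genes differed between hrde-1 and WT within a phase. At 23C, 54 of 64 sets had positive values (hrde-1 over WT), with a median of 0.26 on the log2 scale, which became 0.06 without the WT library of 23C-G2, 0.45 without the hrde-1 library of 23C-G2, and 0.39 without the WT library and 0.16 without the hrde-1 library of 23C-G4. Over all genes the 23C median was 0.027, with 55.7% positive. Without pairing of libraries, limma called 0 sets and 0 had an unadjusted p under 0.05. Of the 20116 genes tested, 0.850% were called and 820 had such a p. With generation as a block limma also called 0 sets, and 0.895% of all genes. In that fit 28 sets and 2759 of 20116 genes had an unadjusted p under 0.05. The lowest adjusted p of the sets by limma was 0.0103. At p15C, 15 sets were positive, with a median of -0.11, which became 0.22 without the hrde-1 library of p15C-G1, -0.43 without that of p15C-G2 and 0.40 as a ratio to input. Over all genes the p15C median was 0.121, with 63.7% positive. Without pairing, limma called 0 sets there and 0 had an unadjusted p under 0.05. Of the 20116 genes tested, 0.949% were called and 1617 had such a p. With the block limma again called 0 sets, and 1.45% of all genes. In that fit 13 sets and 4880 of 20116 genes had an unadjusted p under 0.05, so the share was no larger among the sets. The lowest adjusted p of the sets by limma was 0.0484.

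The sign of the difference changed from generation to generation. At 15C-G3, 18 of 64 sets (28.1%) were higher in hrde-1, with a median of -0.93, while 54.3% of all genes were higher. Of the 64 sets, 30 (46.9%) differed by at least 2-fold there, against 3.59% of all genes. In the other 5 pairs of libraries 0 of 64 sets reached 2-fold. In the 3 generations at 23C, 44, 55 and 58 sets were higher in hrde-1 (medians 0.31, 0.36 and 0.26). Of all genes 48.7%, 55.3% and 53.1% were higher. At p15C-G1 only 4 sets were higher (median -0.46), and at p15C-G2 45 were (median 0.23). Of all genes 60.9% and 60.6% were higher. The hrde-1 library of p15C-G1 had the highest median of all genes, 6.00 RPKM. It also had the lowest summed Pol II of any library over germline and oocyte genes (675.5 RPKM) and replication genes (642.8 RPKM). Both sums were lower in hrde-1 than in WT in every generation. Low values in that library were thus not confined to histone genes, and its part in these signs was not tested.

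Sets could be followed through all 6 pairs. Of the 64 sets, 42 (65.6%) were higher in hrde-1 in all 3 generations at 23C, against 19.6% of all genes. Of these, 18 (28.1% of the sets) were also lower in hrde-1 in all 3 generations at 15 °C, against 1.08% of all genes. They comprised all 15 sets of the 3 chromosome V clusters around his-5, his-17 and his-49, 2 of the 4 sets at his-1 to his-4, and his-38. The shares of all genes were not matched for Pol II level. The quartets took another course, higher in hrde-1 at 15C-G3 by medians of 0.14 to 0.24 and lower at p15C-G1.

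**Figure D3:**
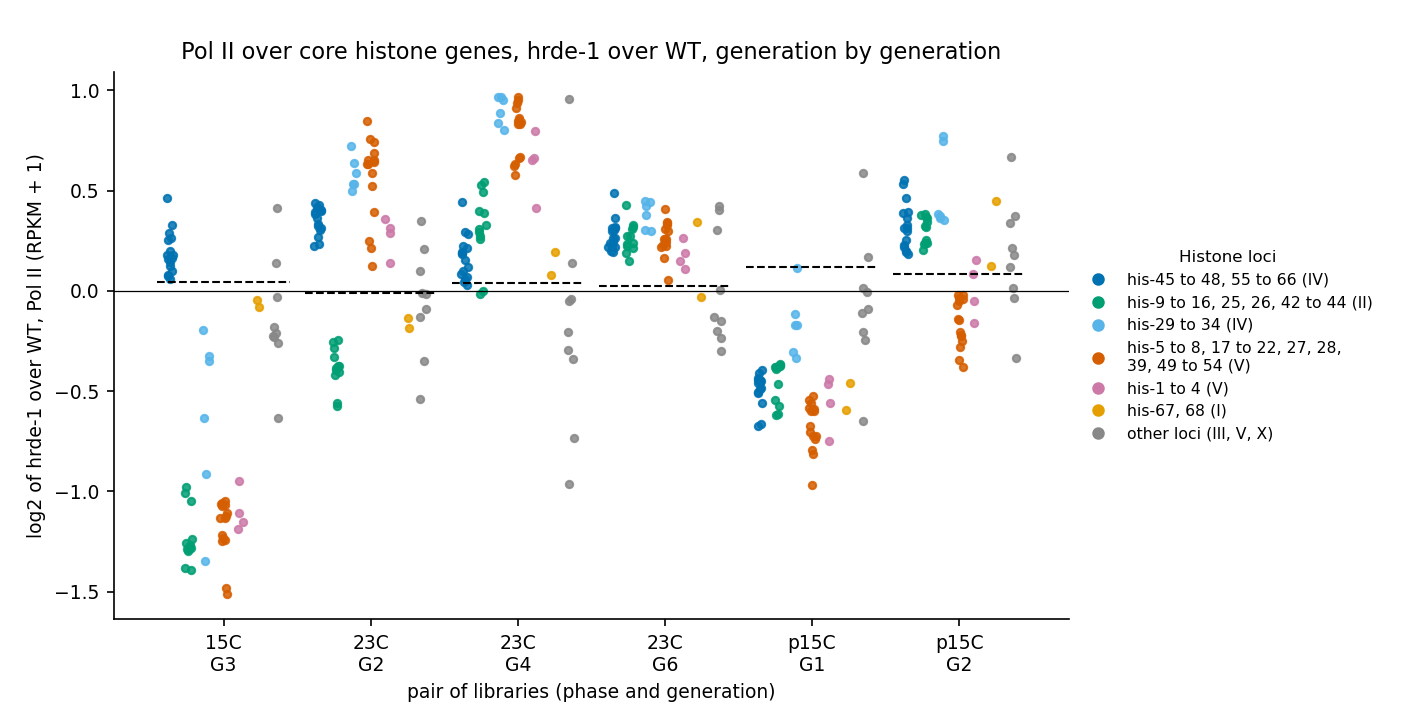
Log2 ratio of Pol II (RPKM + 1) in hrde-1 over WT for each of the 64 sets (points, coloured by group of loci) in the 6 pairs of libraries of the same generation, with the median of all genes as dashes. At 15C-G3 the chromosome II and V clusters have locus medians of -1.12 to -1.27, most sets are above 0 at 23C, and 60 of 64 are below 0 at p15C-G1.

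This reversal between phases was tested by a comparison added after these signs were seen, hrde-1 against WT at 23C minus the same at p15C. Without the block limma called 0 sets, 0 had an unadjusted p under 0.05, and 0% of all genes were called. With the block it called 6 sets, his-8, his-20, his-22, his-38, his-52 and his-54, with values of 1.02 to 1.13 and adjusted p of 0.0731 to 0.0804, while 0.283% of all genes were called. Since these members were singled out for that pattern, the test is not independent of their choice.

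The return to 15 °C was compared with 23C in each genotype. The median change of the 64 sets, p15C against 23C, was -0.25 in hrde-1 (0.09 without the hrde-1 library of p15C-G1 and -0.59 without that of p15C-G2), with 10 sets positive, and limma called 0 sets, with 1 at an unadjusted p under 0.05 and 0.0249% of all genes called. In WT the median was 0.16 (-0.10 without the WT library of 23C-G2), with 50 sets positive. There 0 sets were called by limma, 4 had an unadjusted p under 0.05, and 0.368% of all genes were called. The median of all genes was 0.113 in hrde-1 (63.7% positive) and 0.033 in WT (55.8% positive). An unadjusted p under 0.05 held for 1641 of 20116 genes in hrde-1 and 1322 in WT. Without both 23C-G2 libraries, limma called 13 sets lower in hrde-1 at p15C than at 23C, with 0.631% of all genes called, and all 13 lay in the 3 chromosome V clusters around his-5, his-17 and his-49. The median over his-49 to his-54 was 37.1 ± 11.5 RPKM at p15C (SD, n = 2) and 71.3 ± 33.7 RPKM at 23C (SD, n = 3) in hrde-1, and 51.1 ± 4.27 RPKM at p15C and 47.7 ± 26.3 RPKM at 23C in WT.

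The pair his-67 (H4) and his-68 (H2A) had its lowest values at 23C. Pol II over his-67 came to 74.4 RPKM at 15C-G3, 36.9, 39.2 and 29.5 at 23C and 38.9 and 65.1 at p15C in hrde-1. In WT his-67 had 76.7, 42, 37, 30.1, 59.3 and 47.4 RPKM in the same order. All 6 libraries at 23C lay at or below 42 RPKM, below both libraries at 15C-G3, and in WT the 3 at 23C lay below both at p15C. His-68 had 46.3, 40.2 and 37.3 RPKM at 23C and 75.2 at 15C-G3 in hrde-1, and 50.9, 35 and 29.1 RPKM at 23C and 79.6 at 15C-G3 in WT. With all libraries the log2 change of his-67, 23C against 15C, was -1.07 in both genotypes (limma, adjusted p = 0.284 in hrde-1 and 0.486 in WT), and that of his-68 was -0.86 in hrde-1 and -1.07 in WT (adjusted p = 0.505 and 0.486), without a call. Without both 23C-G2 libraries the change of his-67 was -1.11 in hrde-1 and -1.18 in WT (limma, adjusted p = 0.00356 and 0.0075), and that of his-68 was -1.29 in WT (0.00153).

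Pol II over the replacement variants differed widely between genes. His-69, his-70, his-71, his-72 and his-74 encode H3 proteins of the H3.3 type, which enter chromatin outside DNA replication. His-72 had 47.6, 37.5, 52.9, 54.9, 43.8 and 49 RPKM in hrde-1 and 54, 41.1, 67.2, 64.8, 47.3 and 50.3 in WT, and his-74 had 24.7 to 40.5 RPKM in hrde-1 and 28.6 to 66.5 in WT. His-69 and his-70 were low, at 5.59 to 7.24 and 1.58 to 4.72 RPKM in hrde-1 and 4.19 to 7.32 and 1.73 to 4.87 in WT. In hrde-1, 23C against 15C was 0.01 for his-72 and -0.12 for his-74 on the log2 scale.

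His-71 on chromosome X had its own course. It had 2.68 RPKM at 15C-G3, 2.34, 5.70 and 8.19 at 23C and 4.62 and 5.41 at p15C in hrde-1, and 2.35, 2.38, 6.71, 8.17, 4.00 and 4.07 RPKM in WT. Both genotypes were close in every generation, and 23C-G2 lay with 15C-G3. With all libraries the log2 change of his-71, 23C against 15C, was 0.68 in hrde-1 and 0.89 in WT (limma, adjusted p = 0.86 and 0.654), and without both 23C-G2 libraries, which lowers the spread by construction, it was 1.09 in hrde-1 and 1.33 in WT (limma, adjusted p = 0.0109 and 0.00597).

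Among genes whose RefSeq length departs from their class, the H2A gene his-35 was the steadiest. It had 31.1, 30.6, 29.5, 26.9, 30.8 and 31.9 RPKM in hrde-1 and 31.8, 28.5, 30.6, 29.5, 30.5 and 28.1 RPKM in WT. The median over its locus, his-35 with his-37 and his-41, differed by 1.38-fold between the highest and the lowest library. The H2B gene his-41 had 30.1 to 41.5 RPKM in hrde-1 and 34.4 to 42.6 in WT, and the H4 gene his-37 had 33 to 50.7 in hrde-1 and 33.1 to 54.1 in WT. His-39, beside his-5 to his-8, had lower Pol II than its neighbours (3.64 to 17 RPKM in hrde-1 and 4.58 to 12.6 in WT) with its highest values at 23C-G4 and 23C-G6 in hrde-1 and at 23C-G6 in WT. The H4 gene his-38 had 16.1, 9.67, 29.3, 22, 12.4 and 20.3 RPKM in hrde-1 and 25.6, 8.22, 14.6, 16.1, 19.9 and 25.8 RPKM in WT.

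H3K9me3 over core histone genes was moderate and again differed by locus. The ratio of H3K9me3 to input had a median of 0.511 over the 64 sets and 0.964 over all genes. The highest loci were his-49 to his-54 and his-17 to his-22, both at 13.6 RPKM, whose ratio to input of 0.94 was near that of the median gene. They were followed by his-1 to his-4 at 9.31, his-5 to his-8 at 9.06, his-29 to his-34 at 8.89 and the chromosome II cluster at 7.61 RPKM. The chromosome IV quartets had 3.91 to 4.95 RPKM, with ratios to input of 0.227 to 0.269, and his-35 with his-37 and his-41 had the lowest locus median at 2.65.

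Pol II and H3K9me3 were weakly related across members. Spearman's rho between mean Pol II and mean H3K9me3 was -0.35 across the 64 sets and -0.14 across the 17 loci, as a description, since sets of a locus share reads and both marks share gene length. The chromosome IV quartets combined the highest Pol II with low H3K9me3.

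**Figure D4:**
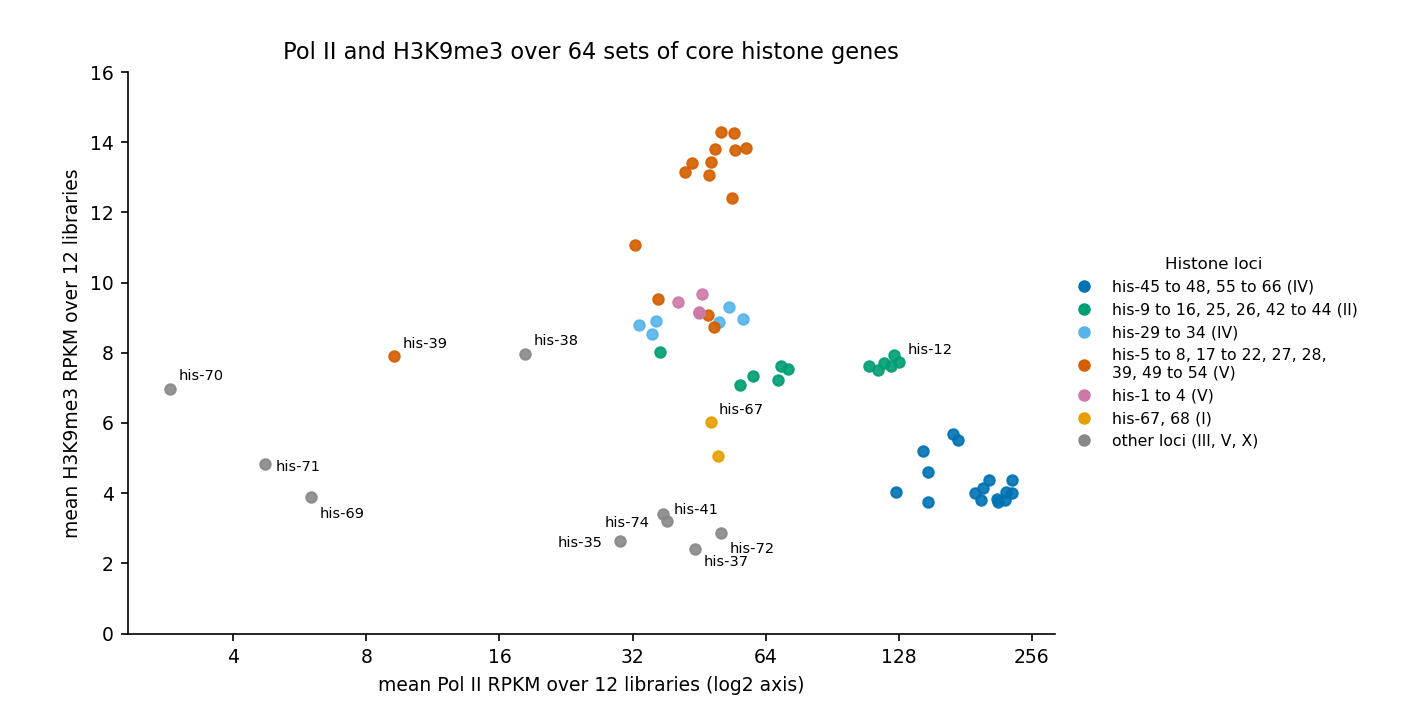
Mean H3K9me3 against mean Pol II (RPKM over 12 libraries each, Pol II on a log axis) for the 64 sets of core histone genes, coloured by group of loci. The chromosome IV quartets lie at the right with 3.75 to 5.69 RPKM of H3K9me3, and the chromosome V clusters at his-17 to his-22 and his-49 to his-54 lie at the top, near 13.6 RPKM.

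In both genotypes H3K9me3 was lower at 23C than at 15C at the loci with most of it, without a call. The median over his-49 to his-54 came to 18.2 RPKM at 15C-G3, 14.6, 10.8 and 10.4 at 23C and 12.7 and 14.6 at p15C in hrde-1. In WT it was 18.9, 13.9, 11.8, 8.66, 12.5 and 16.5 RPKM. All 6 libraries at 23C lay below both at 15C-G3, and the genotypes overlapped. For his-54, 23C against 15C was -0.55 ± 0.20 in hrde-1 and -0.64 ± 0.20 in WT (SE, limma adjusted p = 0.453 and 0.323). Over the 64 sets the median change was -0.31 in hrde-1 and -0.36 in WT, and with values taken as ratios to input it was 0.06 in hrde-1 and -0.09 in WT. Limma called 0 sets in both genotypes, with 24 in hrde-1 and 21 in WT at an unadjusted p under 0.05. Of the 20167 genes, 0.0645% were called in hrde-1 and 0.0496% in WT, and 1618 and 1801 had such a p. Without the ratio to input, the median change of all genes was -0.01 in hrde-1 and -0.015 in WT. The difference between genotypes had a median of 0.08 (-0.07 without the WT library of 23C-G6), with 0 sets called by limma, 1 at an unadjusted p under 0.05 and 0% of all genes called.

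Between genotypes, the chromosome II cluster had more H3K9me3 in hrde-1 in each pair of libraries. Its median came to 12.0 RPKM at 15C-G3, 9.52, 7.11 and 6.33 at 23C and 7.68 and 7.71 at p15C in hrde-1, against 8.02, 5.93, 5.99, 5.25, 7.24 and 6.84 in WT. At 23C the locus median of the difference, hrde-1 over WT, was 0.38 on the log2 scale. The H3 gene his-13 of that cluster had 0.19 ± 0.14 (SE, limma adjusted p = 0.583), while its neighbours his-15 and his-16 had 0.52 ± 0.14 and 0.54 ± 0.16 (adjusted p = 0.0701 and 0.0911). His-15 (H2B) and his-16 (H2A), chosen after their values were seen, passed the threshold on p but not that of 2-fold. Input over the median set was 14.7, 14.2 and 10.5 RPKM at 23C in hrde-1 and 17.2, 16.6 and 17.4 RPKM in WT, and with each value taken as a ratio to input the median difference over the 64 sets at 23C was 0.53. Over the 64 sets the median at 23C was 0.11 (-0.01 without the WT library of 23C-G6), with 50 positive, 0 called by limma, 12 at an unadjusted p under 0.05 and 0.848% of all genes called. At p15C the median was 0.05, with 40 positive. By limma 0 sets were called, 1 had an unadjusted p under 0.05, and 0.912% of all genes were called. Over all genes the median was 0.062 at 23C (65.7% positive) and 0.085 at p15C (69.1% positive). An unadjusted p under 0.05 held for 2795 of 20167 genes at 23C and 2315 at p15C.

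After return to 15 °C the median H3K9me3 change, p15C against 23C, was 0.07 in hrde-1 and 0.15 in WT. Leaving out 1 library at a time gave -0.01 (without the hrde-1 library of 23C-G6) to 0.17 (without that of 23C-G2) in hrde-1 and 0.02 (without the WT library of 23C-G6) to 0.22 (without that of 23C-G2) in WT. By limma 0 sets were called in either genotype, with 1 in hrde-1 and 6 in WT at an unadjusted p under 0.05. Of all genes, 0.00992% were called in hrde-1 and 0% in WT. Their median change was 0.002 in hrde-1 and -0.01 in WT, and 797 and 1367 of 20167 had an unadjusted p under 0.05.

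**Figure D5:**
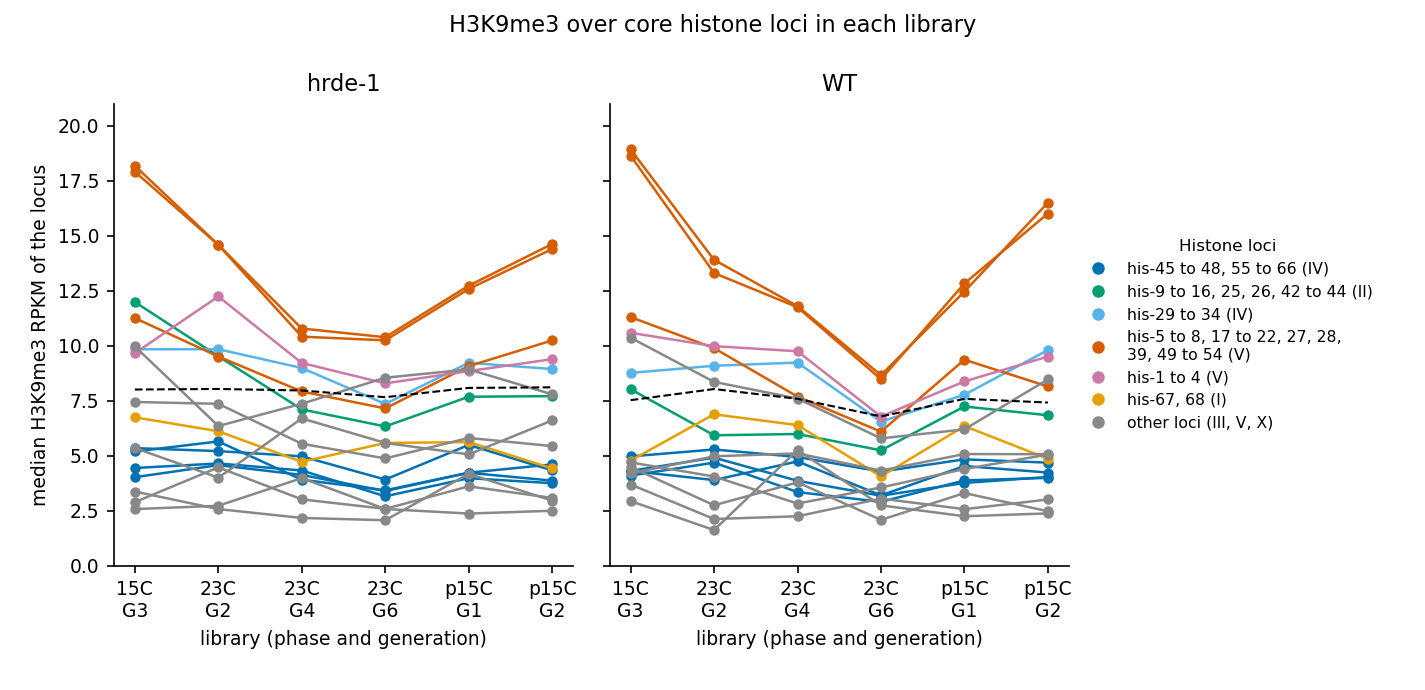
Median H3K9me3 RPKM of each core histone locus by library, for hrde-1 (left) and WT (right), with generations in culture order and the median of all genes as a dashed line. The loci of his-17 to his-22 and his-49 to his-54 lie highest in every library, and were lower in all 6 libraries at 23C than in both at 15C-G3.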

How the data were processed

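Pol II, H3K9me3 and input ChIP-seq were measured in 12 libraries each. The deposited values are RPKM per gene, computed by the authors from perfect alignments (Bowtie 0.12.7, WS190, both strands) with no input subtraction. How reads with several alignments were treated is not given in the sources used here. Depth was estimated from the steps of the values.

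The 69 members and all gene lists were chosen with earlier results of these data known. Loci join members within 10 kb. Tests used limma 3.58.1 (R 4.3.3) on log2(RPKM + 1) with a mean-variance trend, 12 libraries per mark and 6 group means, over genes averaging at least 1 RPKM in the mark and in input, with Benjamini-Hochberg adjustment over all genes. Fold changes are on the log2(RPKM + 1) scale, which understates changes of low genes. There were 7 comparisons per mark and 1 added later. The single 15C library of a genotype is assumed to vary like the other groups.

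The main fit did not pair libraries, and a further fit took generation as a block. For Pol II, deviations from the group means in libraries of the same generation correlated at 0.71, 0.355 and 0.497 at 23C and 0.527 at p15C. For H3K9me3 they correlated at 0.052 to 0.207 at 23C, and results are from the main fit, with the block as an alternative. The main fit was run on simulated Pol II data with independent noise. The block fit and the interaction were not simulated.

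Named genes were, by rule, the highest Pol II gene of each class, those whose RefSeq gene length differs from that of their class (standing in for protein sequence, which was not used here), the 2 largest and 2 smallest changes per Pol II comparison, the extremes of H3K9me3, hrde-1, and the called or largest-changing genes of each list. Alternatives were a pseudocount of 0.25, no filter, quantile normalization, the ratio to input, each library left out, generation as a block, and the fit without both 23C-G2 libraries.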

Additional observations from a re-analysis of the deposited data

Results flagged for a closer look

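At 4 loci the hrde-1 over WT difference in Pol II had 1 sign in all pairs of libraries at 23C and the opposite sign in all pairs at p15C. The mean log2 ratio at 23C minus that at p15C was 0.89 at his-5 to his-8 with his-39, 0.94 at his-49 to his-54, 0.91 at his-17 to his-22 and 1.02 at his-38, and for these locus values the difference itself was not tested. Tested for each set with generation as a block, that difference was called by limma in 6 of 64 sets and in 0.283% of all genes, and without the block in 0. That comparison was added after the signs at these sets were seen, so it is no independent support. The hrde-1 library of p15C-G1 was also the lowest over germline and replication genes. The heat change, 23C against 15C, differed between hrde-1 and WT in 30 of 64 sets and 1.43% of all genes in limma with the same block, and in 0 sets without it. It rests on 1 pair of libraries at 15C.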

How the results depend on the processing

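Over the counts and medians of the 14 comparisons, 567 values under an alternative stayed within the limits set and 17 moved. A median stayed if it shifted by less than the SD of the library medians, 0.492 for Pol II and 0.14 for H3K9me3 (log2). Its sign was not part of that rule, so some medians near 0 changed sign and still counted as kept. With quantile normalization limma called 3 sets in hrde-1, 23C against 15C, where the fit as planned called 0, and 0.114% of all genes. Generation as a replicate block raised the called sets for the difference between genotypes in the heat change to 30, and for H3K9me3 the block changed no call. Without both 23C-G2 libraries, 38 sets were called in hrde-1 and 3 in WT for 23C against 15C, 26 for the difference between genotypes, and 13 in hrde-1 for p15C against 23C. Leaving out 1 library at a time gave 0 to 29 called sets for Pol II in hrde-1, 23C against 15C, and a median of -0.065 to 0.179 for the H3K9me3 difference between genotypes in the heat change.

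As ratios to input, the median for hrde-1 against WT was 0.400 for Pol II at p15C. For H3K9me3 it was 0.528 at 23C and 0.511 at p15C, 23C against 15C gave 0.064 in hrde-1 and -0.093 in WT, their difference 0.262, and p15C against 23C 0.440 in hrde-1 and 0.443 in WT. Input held a median of 4.5 to 19.6 reads per member, so these ratios carry large counting error. Both 15C groups have 1 library, each genotype is 1 lineage, and reads shared between copies and neighbours limit every value of a single gene.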
